A study of Mus musculus with 6 samples.

Results

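The genes described here encode the antigen presentation machinery of major histocompatibility complex (MHC) class I in mouse bone marrow monocytes (BMDM) and brainstem microglia (BSM). They were chosen by name, as 10 genes: the heavy chains H2-K1, H2-D1, H2-T23 and H2-M3, the light chain B2m, the peptide transporter subunits Tap1 and Tap2, and the loading factors Tapbp, Calr and Pdia3. Of these, 9 were found by symbol among the 35237 genes of the Cufflinks table and among the 36536 entries of the ALEXA-Seq table. H2-D1 was listed by that symbol in neither table. A row named H2-L carried the Ensembl identifier ENSMUSG00000073411, which GENCODE M21 names H2-D1, and this row is given under its deposited name beside H2-K1 and is not counted among the 9. H2-L is a class I gene of other mouse haplotypes than the one carried by C57BL/6.

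The data were 6 RNA-Seq libraries, 3 of BMDM and 3 of BSM, made from cells sorted by flow cytometry after a Percoll gradient from C57BL/6 mice of 6 weeks of age, whose samples are labelled as male. A supplementary listing of the study names both sexes. BMDM were gated as CD11b+, CD45 high, CD115+ and Ly6G-, and BSM as CD11b+, CD45 low, CD115 low and Ly6G-. Each set was a pool of mice, so the replicates measured the spread between pools, and in bulk RNA fewer expressing cells and less RNA per cell cannot be told apart.

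Class I molecules show peptides from inside the cell to CD8+ T cells. Proteasomes cut proteins into peptides, Tap1 and Tap2 together carry the peptides into the endoplasmic reticulum (ER), and tapasin (Tapbp), calreticulin (Calr) and the disulphide isomerase ERp57 (Pdia3) hold the heavy chain and beta-2 microglobulin (B2m) until a peptide is bound. Microglia of the undisturbed brain are known for low surface class I, which interferons raise.

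The libraries differed in ways that bear on every value below. Summed over all genes, the FPKM (fragments scaled by transcript length and by the number of mapped reads) came to 163199 to 194184 in BMDM and 68288 to 75021 in BSM, a ratio of 2.50 between the group means. The median log2 fold change over the 6364 genes tested was 0.81 towards BMDM, and each gene is also given relative to this median. Monocyte markers summed to 316 to 322 FPKM in BMDM and to 0.946 at most in BSM, and microglia markers summed to 17.9 to 21.5 in BMDM and to 1158 to 1374 in BSM. All 5 listed monocyte markers were under 1 FPKM in every BSM library, and 1 of them was so in every BMDM library too. Of the sort markers, Ptprc (CD45) was at 83.2 to 115 FPKM in BMDM and 21.4 to 46.1 in BSM, while Csf1r (CD115) was at 19.1 to 21.3 in BMDM and 102 to 158 in BSM, the opposite order to the gates. Itgam (CD11b) was at 100.5 to 176 FPKM in 5 libraries but listed at 0 in BSM replicate 2, where the ALEXA-Seq value was 2435. BMDM replicate 2 stood apart in its markers of other marrow cells. The summed level of 9 granulocyte markers was 516 FPKM there against 61.1 and 102 in the other BMDM libraries and 0.139 at most in BSM, although Ly6g itself was at 0.293 FPKM. The 5 erythroid markers summed to 75.4 FPKM in that library against 15.9 and 11.4, and the 10 lymphocyte markers to 9.09 against 0.703 and 2.53, with 8 of these 10 under 1 FPKM in every BMDM library. In BSM replicate 1, 472 of the tested genes (7.42%) were listed at 0, against 51 to 115 in the other libraries. The study's listing of RNA quality gives the RNA of this set the lowest integrity and concentration of the 6, and the part of RNA quality in the differences was not tested. In FPKM the same 5 class I genes were higher in BMDM with and without this library.

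Promoters of class I heavy chains and of B2m are known for short elements through which these genes are regulated together. Promoter sequences of 300 bases, 250 before to 50 after the annotated start, were taken from RefSeq (GRCm38.p6) and matched 9 of the 10 genes by symbol, all but Tap2. In 4 of these 9 (H2-K1, H2-D1, H2-M3 and B2m) a TGACG was followed after exactly 20 bases by ATTGG, letters known as the X2 and Y boxes of class I promoters. The spacing was set after these promoters had been read. Both strands were searched, and of 32544 distinct promoter sequences of this length 31 (0.0953%) held the pair. They belonged to 27 gene symbols. The 4 stretches are shown because they belong to a light chain and heavy chains whose values are described below. Capitals mark the letters of the pair.
H2-K1: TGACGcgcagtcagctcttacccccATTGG
H2-D1: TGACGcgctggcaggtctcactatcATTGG
H2-M3: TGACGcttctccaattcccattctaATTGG
B2m: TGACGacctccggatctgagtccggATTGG

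They lie at chr17:34000359-34000388 (minus strand), chr17:35262993-35263022 (plus strand), chr17:37270188-37270217 (plus strand) and chr2:122147609-122147638 (plus strand). TGACG alone was present in 6 of the 9 promoters, against 20.9% of all, and CCAAT in all 9, against 37.4% of all. Interferon-response elements have GAAA repeats spaced by a few bases, and 2 forms were searched on both strands, GAA and GAAA set 2 bases apart (GAANNGAAA, 7.57% of all promoters) and GAAA and GAAA set 2 bases apart (3.45%). The first was found in H2-K1, H2-D1 and H2-M3 and the second in B2m and H2-T23. The promoters of H2-K1 and B2m are given whole, with the spaced pair and the interferon-response letters in capitals, since these genes stand for the heavy and the light chain in the ratios below. H2-K1 has a second start in the table, and the one printed is at chr17:34000284-34000583 (minus strand).
H2-K1: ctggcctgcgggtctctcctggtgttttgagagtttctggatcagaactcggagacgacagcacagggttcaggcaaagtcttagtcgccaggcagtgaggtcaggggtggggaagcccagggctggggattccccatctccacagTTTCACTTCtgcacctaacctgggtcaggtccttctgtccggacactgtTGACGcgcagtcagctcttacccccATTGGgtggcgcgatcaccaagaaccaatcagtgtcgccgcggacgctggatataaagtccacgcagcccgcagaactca
B2m: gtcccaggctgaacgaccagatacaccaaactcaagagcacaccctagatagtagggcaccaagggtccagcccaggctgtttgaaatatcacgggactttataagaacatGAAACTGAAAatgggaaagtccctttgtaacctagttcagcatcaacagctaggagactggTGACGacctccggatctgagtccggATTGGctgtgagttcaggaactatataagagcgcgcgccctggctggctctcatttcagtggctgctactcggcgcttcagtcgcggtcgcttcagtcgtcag

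The B2m promoter lies at chr2:122147437-122147736 (plus strand). Calr held none of the elements above except CCAAT, but it held an ER stress element, CCAAT followed after 9 bases by CCACG, which 39 of the 32544 promoters (0.120%) had. It is shown as a description of this promoter, and any link to the level of Calr was not tested. It lies on the strand opposite to the gene, and capitals mark both of its parts, at chr8:84846882-84847181 (minus strand).
Calr: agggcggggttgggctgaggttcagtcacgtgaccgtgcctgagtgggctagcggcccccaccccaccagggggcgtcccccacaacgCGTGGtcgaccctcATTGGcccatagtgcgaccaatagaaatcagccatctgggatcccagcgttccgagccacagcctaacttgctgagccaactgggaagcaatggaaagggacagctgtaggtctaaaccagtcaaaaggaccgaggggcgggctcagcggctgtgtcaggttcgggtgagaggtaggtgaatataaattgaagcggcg

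A match of letters is a description of the sequence, and no binding was measured here. Promoters of Tap1, Tapbp and Pdia3 held neither the spaced pair nor the interferon-response letters nor the ER stress element in this window.

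In each cell type the class I genes covered a wide range of levels. FPKM is scaled by length, so levels were compared between genes. Copies in other genes make some of these levels uncertain, as given below. In BMDM the order of mean FPKM was B2m, Pdia3, Calr, H2-K1, H2-L, Tap1, H2-T23, Tapbp, H2-M3 and Tap2. The ranges of Pdia3 and Calr overlapped, as did those of Calr and H2-K1 and those of Tap1, H2-T23 and Tapbp, and the other neighbours in that order did not overlap. In BSM the order began with the same 5 genes, and only the ranges of Pdia3 and Calr overlapped among them. The 5 remaining genes came after H2-L, and Tapbp, H2-T23, Tap1 and H2-M3 overlapped one another between 1.15 and 2.81 FPKM, with Tap2 below all of them. H2-L overlapped Tapbp, H2-T23 and Tap1 there. Among the genes above 0 in a library, B2m was at the percentiles 99.8 to 99.9 and H2-K1 at 85.3 to 97.2.

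**Figure D1:**
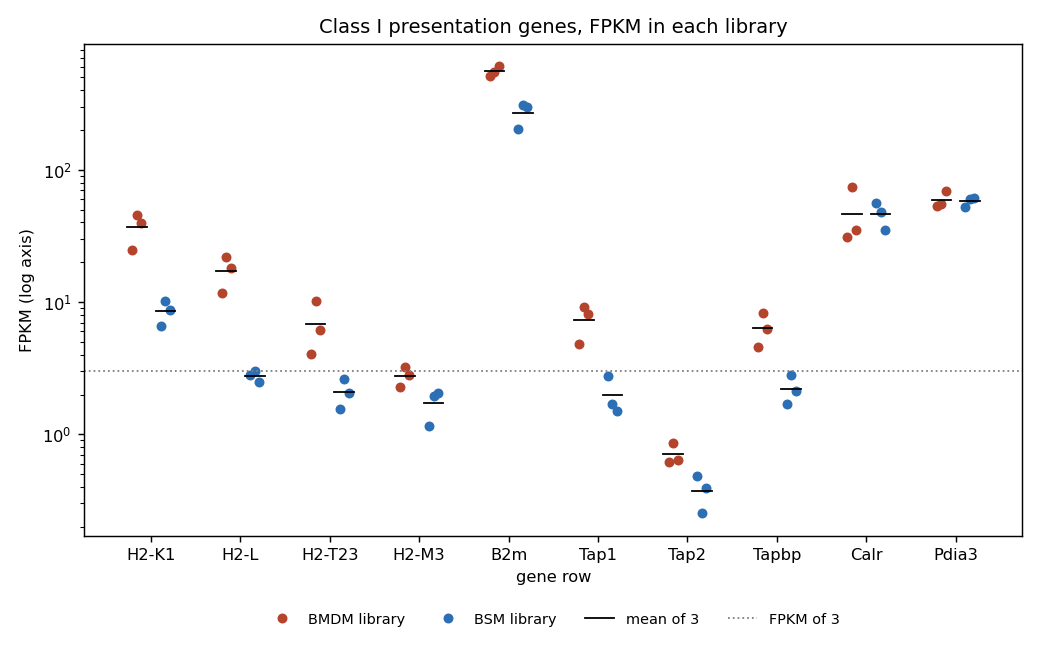
FPKM (log axis) of the class I presentation genes found in the Cufflinks table and of the H2-L row, with 1 point per library, 3 BMDM and 3 BSM libraries, and a bar at the mean of each group. BMDM and BSM do not overlap for 8 of the 10 rows, and they overlap for Calr and Pdia3. Of all tested genes, 55.2% do not overlap with BMDM higher and 11.6% with BSM higher.

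To ask whether the class I genes differed between the cell types, log2(FPKM + 1) was compared in limma over all 6364 genes that reached an FPKM of 3 in any library. Tap2 never reached that level, so 8 of the 9 genes were tested. H2-K1, H2-T23, B2m, Tap1 and Tapbp were higher in BMDM, which makes 5 of 8, and no gene was higher in the other cell type. Of the 8, H2-T23, H2-M3, Tap1 and Tapbp reached an FPKM of 3 in BMDM alone, so the minimum itself favoured a difference in that direction for them and their part of each count is a description. They were above 1 FPKM in every library. Over all tested genes, 45.3% were called towards BMDM and 9.22% towards BSM. The count by direction was therefore not far from what all genes showed, and the genes are described below by size and by their position relative to the median. BMDM and BSM did not overlap for 6 of the 8 tested genes, all higher in BMDM, against 55.2% of all genes, with 11.6% of all genes separated in the other direction. The median log2 fold change of the 8 was 1.12, which is 0.32 above the median of all tested genes. H2-T23, H2-M3, Tap1 and Tapbp enter this value, so it is a description. So are the positions of these genes relative to the median of all tested genes. In the ALEXA-Seq values, a second quantification of the same reads on a linear scale of unknown unit, the same 5 genes were higher in BMDM and none in BSM, with 37.1% and 10.9% of all 6364 tested entries called in these directions.

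H2-K1 encodes the classical heavy chain H-2K (chr17:34132973-34137229 in mm9, the build of the files). Its FPKM was 24.7, 45.9 and 39.6 in the BMDM libraries and 6.62, 10.2 and 8.74 in the BSM libraries. Every BMDM library was above every BSM library. The mean was 36.7 ± 10.9 (SD, n = 3) against 8.53 ± 1.81 (SD, n = 3), a ratio of 4.30. The log2 fold change was 1.96 (SE 0.30, adjusted p = 0.00125), or 1.15 above the median of all tested genes. Without BMDM replicate 2 it was 1.78 (adjusted p = 0.0069), while the other BMDM libraries still held 61.1 and 102 FPKM of granulocyte markers, whose part in the difference was not tested. The ALEXA-Seq values gave 1.81 (SE 0.27, adjusted p = 0.00199).

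The H2-L row (chr17:35400039-35404440), whose identifier is that of H2-D1, the heavy chain H-2D, had the largest difference among the class I rows. Its FPKM was 11.7, 21.8 and 18.1 in BMDM and 2.82, 3.04 and 2.48 in BSM, again without overlap. The means were 17.2 ± 5.07 and 2.78 ± 0.280 (SD, n = 3 each), a ratio of 6.19. The log2 fold change was 2.23 (SE 0.28, adjusted p = 0.000458), which is 1.42 above the median, and 2.52 in the ALEXA-Seq values. Reads of the classical heavy chains are hard to assign, because over an alignment of 1050 bases the transcripts of H2-K1 and H2-D1 had 91.3% identity. No alignment of at least 100 bases between H2-K1 and another gene had a mean identity of 95% or more. Such alignments covered 20.4% of the longest H2-D1 transcript, with H2-Q7 as the gene matching the most. Identity was taken over each whole alignment, so stretches of higher identity inside the 1050 bases were not searched. How the counting divided such reads was not given in the sources used here, so these heavy chain values carry that uncertainty.

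H2-T23 encodes Qa-1, a nonclassical heavy chain that shows leader peptides of other class I molecules to NKG2 receptors of natural killer cells (chr17:36166921-36169646). Its FPKM was 4.08, 10.13 and 6.15 in BMDM and 1.55, 2.63 and 2.04 in BSM. BMDM were higher without overlap, but the highest value came from BMDM replicate 2 and the BMDM libraries differed more than 2-fold among themselves. The log2 fold change was 1.28 (SE 0.33, adjusted p = 0.0131), which is 0.48 above the median, and 0.99 (adjusted p = 0.0414) without that replicate. In the ALEXA-Seq values it was 1.25 (adjusted p = 0.0432), and the call was lost there without BMDM replicate 2 (0.89, adjusted p = 0.119), without BMDM replicate 3 (1.30, adjusted p = 0.103) and without any 1 of the BSM replicates (0.99 to 1.42). Matches of at least 95% identity to other genes covered 33.1% of its longest transcript, so its level is uncertain.

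H2-M3 encodes a nonclassical heavy chain that binds N-formylated peptides (chr17:37407179-37411430). It was at 2.28, 3.23 and 2.82 FPKM in BMDM and at 1.15, 1.94 and 2.07 in BSM. The groups did not overlap by a narrow margin, and only BMDM replicate 2 reached the FPKM minimum. The log2 fold change of 0.48 (SE 0.27, 95% interval -0.13 to 1.10, adjusted p = 0.153) did not pass the test, and relative to the median of all tested genes it was -0.32. Its promoter held the spaced pair shown above, as those of H2-K1 and B2m did.

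B2m, the light chain shared by these heavy chains (chr2:121973422-121978819), had by far the highest level. Its FPKM was 511, 552 and 606 in BMDM and 204, 307 and 298 in BSM. The means were 557 ± 47.6 and 270 ± 57.3 (SD, n = 3 each), a ratio of 2.06. BMDM were higher without overlap, with a log2 fold change of 1.06 (SE 0.23, adjusted p = 0.00573). That value is 0.26 above the median of all tested genes, and it turned to -0.25 (adjusted p = 0.393) when every library was scaled to the same sum. B2m had no match of at least 90% identity in another gene.

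Tap1, a subunit of the peptide transporter (chr17:34324679-34334170), was at 4.79, 9.10 and 8.12 FPKM in BMDM and at 2.74, 1.68 and 1.49 in BSM. The groups did not overlap, and BSM replicate 1 was the highest of the BSM libraries. The log2 fold change was 1.47 (SE 0.30, adjusted p = 0.00493), which is 0.67 above the median. Its partner Tap2 (chr17:34341025-34353266) stayed under 1 FPKM in every library, at 0.614, 0.864 and 0.644 in BMDM and 0.482, 0.253 and 0.390 in BSM. Tap2 did not overlap between the groups, but the gene was not tested at the FPKM minimum. Without a minimum its log2 fold change of 0.31 was not called (SE 0.17, adjusted p = 0.284), on a scale where adding 1 compresses values this low. Its ALEXA-Seq values overlapped, since BSM replicate 1 was the highest library at 22.1 against 12.4 to 18.5 in BMDM.

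Tapbp, which encodes tapasin, the factor that bridges the transporter and the empty class I molecule (chr17:34056423-34066235), was at 4.60, 8.30 and 6.21 FPKM in BMDM and at 1.70, 2.81 and 2.13 in BSM. Matches of at least 95% identity to 29 other genes covered 27.0% of the longest Tapbp transcript, so its level is uncertain. Tapbp was higher in BMDM without overlap, by a log2 fold change of 1.18 (SE 0.28, adjusted p = 0.00881), or 0.38 above the median. Without BMDM replicate 2 the value was 1.00 (adjusted p = 0.0343). In the ALEXA-Seq values it was 1.41 (adjusted p = 0.0141), and the call was lost without BMDM replicate 2 (1.19, adjusted p = 0.0508) and without BMDM replicate 3 (1.42, adjusted p = 0.0564). Without BMDM replicate 3 the ALEXA-Seq call of B2m was lost too (0.92, adjusted p = 0.0608). The ALEXA-Seq count of genes higher in BMDM was thus 3 without BMDM replicate 2, where 24.3% of all entries were called, and 2 without BMDM replicate 3, where 22.8% were.

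Calr and Pdia3, which serve the folding of many glycoproteins beside class I, did not separate the cell types. Calr (chr8:87365749-87370833) was at 31.0, 73.7 and 35.4 FPKM in BMDM and at 56.4, 47.8 and 34.9 in BSM. Its single high BMDM value was that of replicate 2, and the other BMDM libraries were close to the lowest BSM library. The log2 fold change was -0.07 (SE 0.36, 95% interval -0.91 to 0.77, adjusted p = 0.882), and without BMDM replicate 2 it was -0.45 (adjusted p = 0.214). Pdia3 (chr2:121239511-121264423) was at 52.8, 55.2 and 69.1 FPKM in BMDM and at 52.5, 59.7 and 61.2 in BSM, which overlapped widely. Its log2 fold change was 0.02 (SE 0.22, 95% interval -0.48 to 0.52, adjusted p = 0.934). Relative to the median of all tested genes Calr was at -0.88 and Pdia3 at -0.78. The interval of Pdia3 lay below the median of all genes in both tables. That of Calr lay below it in FPKM, but its upper bound reached the median in the ALEXA-Seq values (1.16). In FPKM it did so without BMDM replicate 1 (1.13), BMDM replicate 3 (1.10), BSM replicate 1 (0.99) or BSM replicate 2 (0.97). The median also depends on the genes tested and on the pseudocount. It was 0.58 with an FPKM minimum of 1, 0.03 without a minimum and 1.04 with a pseudocount of 0.1. The upper bound of Calr was above it with the minimum of 1 (0.77) and without a minimum (0.86). Without a minimum the interval of Pdia3 (-0.41 to 0.45) held the median too.

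**Figure D2:**
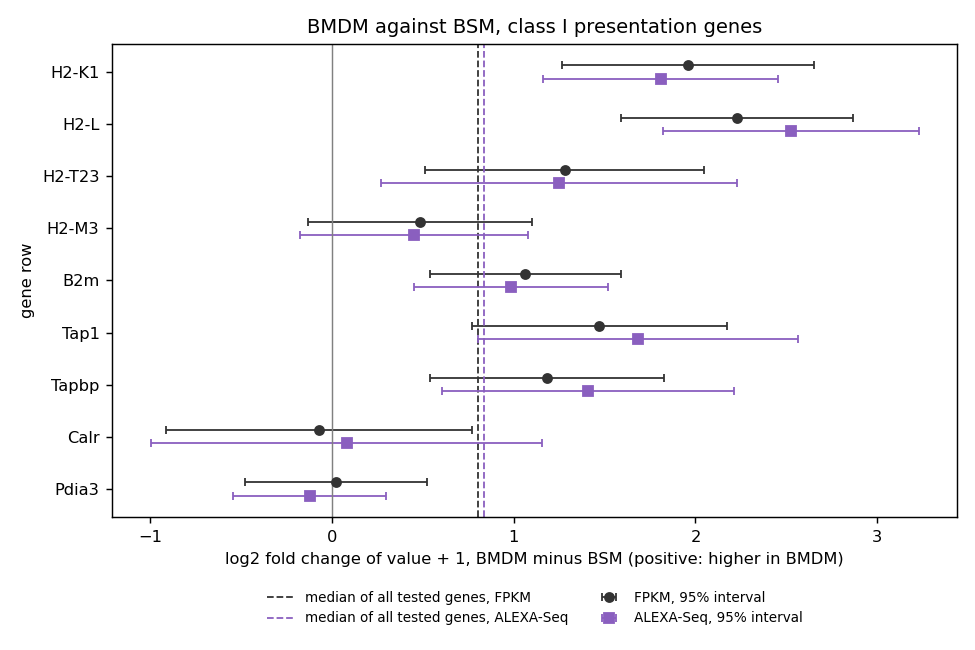
Log2 fold change of value + 1, BMDM minus BSM, for the tested class I presentation genes and the H2-L row, from FPKM (circles) and ALEXA-Seq values (squares), with 95% intervals from limma and 3 libraries per group. The dashed lines are the medians of all tested genes, 0.81 for FPKM and 0.84 for ALEXA-Seq, and H2-K1 and H2-L lie to the right of them while Calr and Pdia3 lie to the left.

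Since the summed FPKM differed 2.50-fold between the groups, the calls were also computed with libraries scaled to each other. With quantile normalization, which moved the median of all genes to 0.02, H2-K1 was higher in BMDM (1.15, adjusted p = 0.0108) and Pdia3 was higher in BSM (-0.72, adjusted p = 0.0307), where 21.7% and 19.3% of all genes were called. The same 2 genes were called with upper quartile scaling, with background shares of 21.7% and 16.5%. With the same sum in every library, which moved the median to -0.23, none was higher in BMDM and both Calr (-1.36, adjusted p = 0.0141) and Pdia3 (-1.27, adjusted p = 0.00282) were higher in BSM, against 15.2% and 24.9% of all genes. In the ALEXA-Seq values, quantile normalization left 2 genes higher in BMDM (22.6% of all entries) and 1 higher in BSM (21.2%), upper quartile scaling left 1 (18.9%) and 1 (18.2%), and the same sum left 0 (13.2%) and 3 (30.2%). The H2-L row was called higher in BMDM under each of these scalings, at 1.12 to 1.52 in FPKM and 1.25 to 1.82 in the ALEXA-Seq values. Across the 4 scalings of FPKM the order from H2-L and H2-K1 through Tap1, H2-T23, Tapbp and B2m to H2-M3, Pdia3 and Calr stayed the same. Scaling a library moves its genes by similar amounts, so the kept order was largely fixed in advance and adds no support to it.

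**Figure D3:**
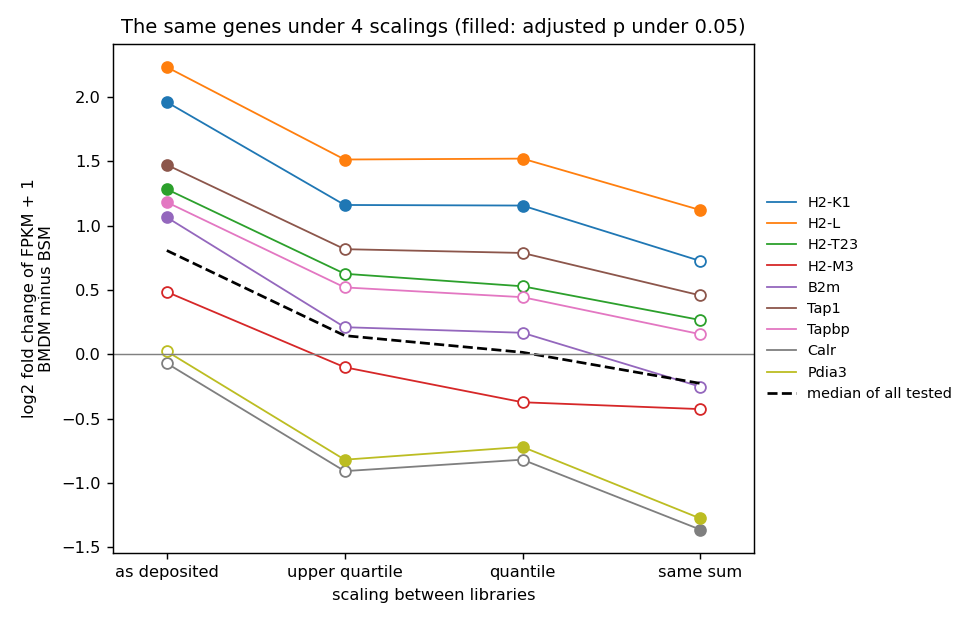
Log2 fold change of FPKM + 1, BMDM minus BSM, for the tested class I presentation genes and the H2-L row with the values as deposited and under 3 other scalings between libraries. Filled points have an adjusted p under 0.05, and the dashed line is the median of all tested genes, which moves from 0.81 to -0.23. The genes keep their order, which is largely fixed because scaling moves them by similar amounts.

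Ratios of 2 genes within a library do not depend on how libraries are scaled. The ratio was taken for 12 pairs and tested by an exact two-sided permutation of the 3 BMDM and 3 BSM libraries, in which 0.1 is the smallest possible p, so no pair could pass 0.05. In 6 pairs the groups did not overlap, each with an exact permutation p = 0.1 and an adjusted p of 0.2 over the 12 pairs. The share of all gene pairs that separate the groups was not computed, so this count is a description. Among single tested genes, 55.2% were separated towards BMDM and 11.6% towards BSM.

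The classical heavy chains were higher relative to B2m in BMDM. H2-K1 over B2m was 0.0483, 0.0831 and 0.0653 in BMDM and 0.0325, 0.0333 and 0.0294 in BSM, which is a 2.02-fold higher ratio in BMDM, without overlap. For H2-L over B2m the ratio was 2.87-fold higher in BMDM, also without overlap, and H2-L over H2-K1 was 0.456 to 0.475 in BMDM and 0.284 to 0.425 in BSM. With FPKM + 1 the log2 difference of H2-L over H2-K1 went from 0.51 to 0.27 and the separation was lost (p = 0.4, exact permutation). H2-T23 over B2m was 1.49-fold higher in BMDM with overlapping libraries (p = 0.2, exact permutation). H2-M3 over B2m differed in the other direction, 1.27-fold higher in BSM, and overlapped (p = 0.2, exact permutation), while with FPKM + 1 and in the ALEXA-Seq values its groups were separate (p = 0.1, exact permutation).

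The 2 transporter subunits also stood in different proportion. Tap2 over Tap1 was 0.128, 0.0948 and 0.0793 in BMDM and 0.176, 0.150 and 0.261 in BSM, a 1.93-fold higher ratio in BSM without overlap, although every Tap2 value behind it was under 1 FPKM. Tapbp over Tap1 overlapped (p = 0.4, exact permutation), and BSM replicate 1, with its high Tap1, was the lowest library at 0.621. Calr over Pdia3 overlapped as well (p = 0.9, exact permutation), from 0.511 to 1.33 in BMDM and from 0.571 to 1.07 in BSM.

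B2m and the histone gene H3f3a were the house-keeping genes of the study's quantitative PCR, and their ratio had the largest difference of the 12 pairs. B2m over H3f3a was 36.7, 35.3 and 34.4 in BMDM and 222, 280 and 170 in BSM, 6.19-fold higher in BSM and without overlap. H3f3a was at 13.9 to 17.6 FPKM in BMDM and at 0.917 to 1.75 in BSM. Its log2 fold change of 2.90 (limma, adjusted p = 6.46e-05) lay 2.10 above the median of all tested genes. H3f3a reached the FPKM minimum in BMDM alone, the group where it was high, so its call is a description. Matches of at least 95% identity to 19 other genes covered 32.5% of the longest H3f3a transcript, so its level is uncertain.

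**Figure D4:**
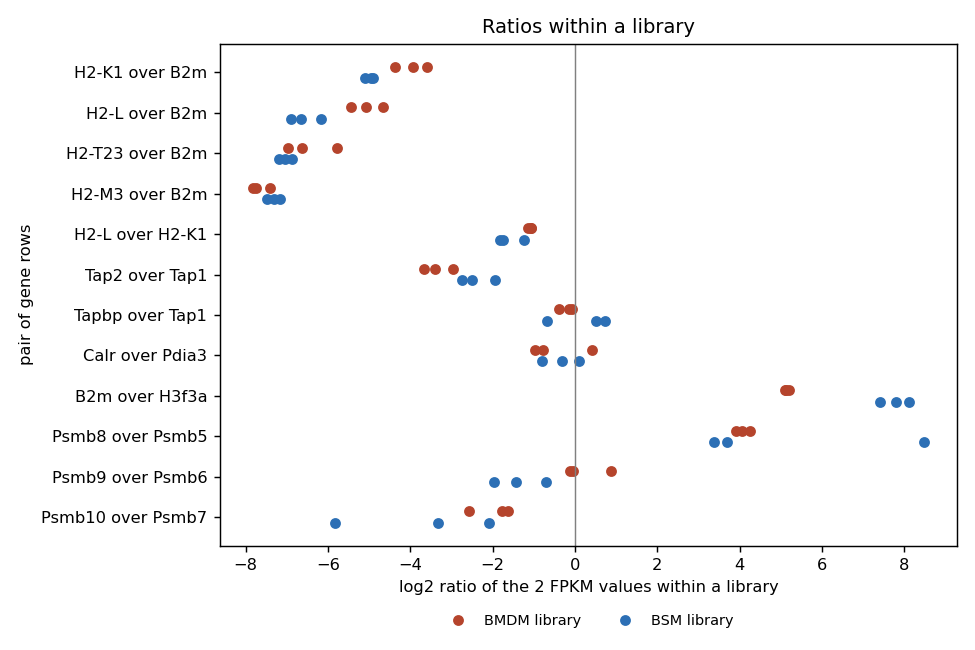
Log2 ratio of 2 FPKM values within each library for 12 pairs of gene rows, with 1 point per library, 3 BMDM and 3 BSM libraries. BMDM are to the right of BSM without overlap for H2-K1 and H2-L over B2m, H2-L over H2-K1 and Psmb9 over Psmb6, and to the left for Tap2 over Tap1 and B2m over H3f3a.

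The lists around these genes follow the order of the pathway. Of 14 genes of peptide generation and trimming, 12 were tested, 8 were higher in BMDM and none in BSM, against 45.3% and 9.22% of all genes, and their median log2 fold change of 1.30 was 0.50 above that of all genes. The called genes with the largest values were Pomp, the proteasome assembly factor (2.62), Psme1, a subunit of the activator PA28 (1.98), Nrd1, the protease nardilysin (1.58), and Psmb10 (1.54). The inducible catalytic subunits of the immunoproteasome were all called: Psmb8 was at 10.8 to 15.6 FPKM in BMDM and 2.79 to 8.04 in BSM (1.51, adjusted p = 0.0111), and Psmb9 at 2.78 to 5.86 and 0.545 to 1.12 (1.47, adjusted p = 0.00523). Psmb10 was at 2.05 to 4.35 FPKM in BMDM and 0.0123 to 0.670 in BSM (adjusted p = 0.00725). Psmb9 and Psmb10 reached the FPKM minimum in BMDM alone, the group where they are high. Their calls and their part of this list's count and median are therefore a description. How many other genes of this list and of the lists below did so was not counted. The counts and medians of these lists are thus descriptions too. With quantile normalization 2 of the 12 were higher in BMDM and 1 in BSM, no more than the 21.7% and 19.3% of all genes, and Psmb9 and Psmb10 were then at 0.64 and 0.72, not called (adjusted p = 0.0684 and 0.0803).

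Of the constitutive subunits that these replace, Psmb7 was higher in BMDM (1.99, adjusted p = 0.00512), Psmb6 did not pass the test (0.50, adjusted p = 0.136), and Psmb5 was at 1.03 FPKM at most and was not tested. Psmb9 over Psmb6 was 0.926 to 1.85 in BMDM and 0.255 to 0.610 in BSM, 3.05-fold higher in BMDM and without overlap. Psmb10 over Psmb7 overlapped (p = 0.2, exact permutation). So did Psmb8 over Psmb5, where BSM replicate 1 reached 357 against 10.5 and 12.9 in the other BSM libraries, with Psmb5 at 0.0225 FPKM in that library. Copies of at least 95% identity covered 88.4% of the longest Psmb5 transcript, so its level is uncertain, and such copies covered 27.4% of Psmb6.

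The other ER loading and folding factors were mixed. Of 15 named, 14 were listed and 11 tested, with 6 called towards BMDM and 1 towards BSM, against 45.3% and 9.22% of all genes, and their median log2 fold change of 0.85 was 0.04 above that of all genes. The exception was Hspa5, the ER chaperone BiP, at 40.4 to 54.2 FPKM in BMDM and 143 to 224 in BSM (-2.01, adjusted p = 0.000491). Hspa5 was also higher in BSM under the 3 other scalings (-3.31 to -2.79). P4hb, a disulphide isomerase (1.88), Sec61b, a subunit of the ER translocon (1.65), and Uggt1, the glycoprotein folding sensor (1.32), had the largest values towards BMDM.

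Among regulators of class I genes, 14 of 15 were listed and 10 tested, of which 6 were higher in BMDM and none in BSM, against 45.3% and 9.22% of all genes, with a median of 0.82, which is 0.02 above that of all genes. The 6 included Stat2 (1.30) and Irf9 (1.04), transcription factors that act together in type I interferon signalling, and Irf2 (1.06), another interferon regulatory factor. With quantile normalization 1 of the 10 was higher in BMDM and 1 in BSM (21.7% and 19.3% of all genes), and with the same sum 1 and 3 (15.2% and 24.9%). The calls of Stat2, Irf2 and Irf9 were lost under all 3 of the other scalings, and Irf2 and Irf9 turned to -0.09 and -0.16 with the same sum per library. Nlrc5, the transactivator that acts on the X and Y boxes of class I promoters, was under 0.3 FPKM in every library, at 0.205, 0.137 and 0.212 in BMDM and 0.00352, 0.0176 and 0.0357 in BSM. It was not tested, and neither was Irf1, which reached 1.38 FPKM at most and overlapped between the groups.

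Of 28 other class I and class I-like heavy chains, 21 were listed in the Cufflinks table, of which 18 stayed under the FPKM minimum and 3 were tested, namely the H2-L row, H2-T24 and Hfe. H2-T24 was at 8.24 to 9.58 FPKM in BMDM and at 3.62 to 5.95 in BSM (0.80, adjusted p = 0.0253), close to the median of all genes, and it turned to -0.34 with the same sum per library. Hfe, an iron-regulating relative of class I, was not called (-0.62, adjusted p = 0.202).

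The tested genes whose values over the 6 libraries ran most like B2m were Sypl, Was and Ptpn11, with a root mean squared difference of centred log2(FPKM + 1) of 0.046 for Sypl and 0.053 for the others. For H2-K1 they were Nop10 (0.067), Slbp (0.086) and ENSMUSG00000057886 (0.096). This likeness was taken over 6363 other genes and describes these libraries alone. Adding 1 compresses low values, so genes alike on this scale can differ in fold. Mean FPKM in BMDM and BSM was 4.15 and 0.312 for Nop10, against 36.7 and 8.53 for H2-K1. Was (4.04 and 1.29) and Ptpn11 (3.3 and 1.14) were also low, against 557 and 270 for B2m. Sypl (18.96 and 9.07), Slbp (28.55 and 6.15) and ENSMUSG00000057886 (11.35 and 2.16) had higher means in both groups.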

How the data were processed

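RNA from flow-sorted BMDM and BSM (3 sets each) was amplified, converted to cDNA and sequenced by the authors. Per the labels, the submitters' processing notes name CASAVA 1.7.0, TopHat 1.3.1, Bowtie 0.12.7, Cufflinks 1.0.3 and the build mm9. The authors deposited FPKM per gene and an ALEXA-Seq expression signal per gene, whose unit is not given in the sources used here. The study lists the mapped reads of each library, but neither table holds read counts, so the reads behind a gene's value are not given.

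Groups were taken from the sample labels. The main test was limma 3.58.1 (R 4.3.3) on log2(FPKM + 1), BMDM against BSM, with empirical Bayes moderation, a trend and no further scaling, for genes that reached an FPKM of 3 in any library, adjusted by the Benjamini-Hochberg method over all 6364 genes with a threshold of 0.05. As many ALEXA-Seq entries, taken by their highest value in any library, were tested alike. Positive values are higher in BMDM, intervals are at 95%, and folds of levels are ratios of means. Alternatives were 3 scalings, a pseudocount of 0.1, other FPKM minimums, no trend, library weights, the replicate number as a block and leaving out each library. Copies are blastn 2.17.0 matches of at least 100 bases between GENCODE M21 transcripts, with identity taken over the whole alignment. Python 3.11.15, pandas 2.3.3, numpy 2.4.6 and matplotlib 3.10.9 were used. In data simulated from these libraries, 200 of the 6364 genes were changed. Limma called 0 of those changed by a log2 fold change of 1, of which 142 had an unadjusted p under 0.05. It called 66.5% and 94% of those changed by 2 and 4. In the real comparison 45.3% and 9.22% of genes were called towards BMDM and BSM, so the adjustment was less strict there. The simulated shares are therefore not the power of the comparison reported here.

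The 10 genes, the other lists and the alternatives were chosen with earlier results of these data known. From each list, up to 4 called genes with the largest absolute log2 fold change were named, with the genes of the ratios and Nlrc5 and Irf1, except that 1 regulator of this rule is not reported here. H3f3a and the 3 genes most like B2m and H2-K1 were also named.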

Additional observations from a re-analysis of the deposited data

How the results depend on the processing

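Scaling between libraries changed the counts of called genes and the direction of several genes, as each scaling moves the median of all genes (0.81 as deposited, 0.02, 0.14 and -0.23 with quantile normalization, upper quartile scaling and the same sum, in FPKM). The number of genes higher in BMDM (5 as deposited) became 1, 1 and 0 in FPKM and 2, 1 and 0 in the ALEXA-Seq values, in the same order of scalings, and the number higher in BSM (0 as deposited) became 1, 1 and 2, and 1, 1 and 3. In FPKM, H2-M3 turned to -0.37, -0.10 and -0.43 and Pdia3 to -0.72, -0.82 and -1.27, and B2m turned to -0.25 with the same sum. In the ALEXA-Seq values, H2-M3 turned to -0.20, -0.27 and -0.82 and Calr to -0.61, -0.65 and -1.20, and with the same sum H2-T23 turned to -0.023 and B2m to -0.30. Leaving out 1 library at a time kept the FPKM counts at 5 and 0. There Calr ranged from -0.45 to 0.16 and Pdia3 from -0.094 to 0.097. H2-M3 could not be tested without BMDM replicate 2. The ALEXA-Seq count ranged from 2 to 5, and Calr from -0.43 to 0.38. Neither count moved with the other pseudocount, FPKM minimums or library weights, in so far as each was run, nor, in FPKM, without the trend. H2-T23 in the ALEXA-Seq values was not called without the trend (adjusted p = 0.0576), which left 4. In FPKM, positions relative to the median of all tested genes moved with the FPKM minimum and the pseudocount. H2-M3 went from -0.32 to 0.45 without a minimum, and B2m from 0.26 to 0.028 with a pseudocount of 0.1.

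Of the log2 ratios, Calr over Pdia3 turned to 0.20 in the ALEXA-Seq values and ranged from -0.52 to 0.17 over the left-out libraries. Psmb8 over Psmb5 turned to 0.86 with FPKM + 1 and ranged from -2.01 to 0.53, with the positive value without BSM replicate 1. Psmb10 over Psmb7 turned to -0.45 with FPKM + 1. The number of pairs without overlap (6) was 7 in the ALEXA-Seq values and 6 to 9 over the left-out libraries. The cause of these changes was not tested.

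The replicate number as a block left 5 genes higher in BMDM and 0 in BSM in FPKM. The numbers were not shown to pair the samples, since libraries of the same number had correlations of deviations across genes of -0.02, -0.01 and 0.13, and not every library correlated best with its own number. The read counts behind each gene's FPKM are not given, which limits what can be said of genes under 1 FPKM such as Tap2 and Nlrc5, or near it such as Psmb5.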
